A study of Homo sapiens with 6 samples.

Results

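The nuclear genes of respiratory complex I and complex II were followed through RNA sequencing of MIA PaCa-2, a long-established cell line from a human carcinoma of the pancreas, labelled wild type. Members were the protein-coding genes whose symbol begins with NDUF, assembly factors (NDUFAF) included, together with SDHA, SDHB, SDHC and SDHD, which came to 52 of the 60604 genes used. They comprised 37 subunits of complex I, the 8 assembly factors NDUFAF1 to NDUFAF8, the 4 subunits of complex II and 3 other genes that share the NDUF name. The last 3 were NDUFA4, now known as a subunit of complex IV, its paralogue NDUFA4L2, and the readthrough gene NDUFC2-KCTD14. A further 67 of 115 genes with an NDUF symbol were not protein-coding, mostly processed pseudogenes, and were left out, with at most 52 counts in a library.

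Complex I takes electrons from NADH, passes them along a flavin and a chain of iron-sulfur clusters to ubiquinone, and pumps protons across the inner mitochondrial membrane. Its core subunits carry the cofactors or the proton channels, its accessory subunits surround the core, and its assembly factors build the complex without staying in it. Complex II, succinate dehydrogenase, oxidises succinate in the citric acid cycle and feeds the same pool of ubiquinone without pumping protons, and all of its subunits are nuclear-encoded.

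The BP+Huaier group held 3 libraries of cells given 12.5 µg/ml of black phosphorus (BP), an allotrope of phosphorus built of thin sheets, and 10 mg/ml of Huaier, a preparation from a fungus used in Chinese medicine. The BP group held 3 libraries of cells given BP at 12.5 µg/ml alone, so both groups carried BP, and untreated cells were not analysed here. The treatment time was not given in the sources used here. Whether libraries within a group are separate cultures cannot be read from the labels, so the p-values reflect only how these libraries vary, and that may be technical.

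Totals on genes were 16856727, 15808056 and 16733871 counts in BP+Huaier and 16547822, 17036565 and 15657593 counts in BP. At these depths 3 counts were worth 0.160 to 0.222 CPM (the count relative to the size of its library, with sizes adjusted by TMM, edgeR's trimmed mean of M values). BP+Huaier 3 stood apart from BP+Huaier 1 and 2. Along the first principal component, which held 72.42% of the variance over all genes, BP+Huaier libraries 1, 2 and 3 lay at 65.09, 65.99 and 11.46, and BP libraries 1, 2 and 3 at −48.61, −50.55 and −43.39. Of the markers of the line, the keratin gene KRT8 (769 to 1666 CPM over the 6 libraries) and the vimentin gene VIM (3142 to 3809 CPM) were abundant, whereas EPCAM and CDH1 were at or near 0 (at most 0.266 CPM). KRT18 and KRT19 were also abundant, and both passed the test (1.71-fold and 2.05-fold higher in BP+Huaier). The leukocyte gene PTPRC and the fibroblast gene DCN had 0 counts, and ALB, VWF, PECAM1 and CD68 had at most 0.369 CPM, but the collagen gene COL1A2 had 373 to 476 CPM in BP+Huaier and 494 to 549 CPM in BP. Of the exon bases of CD68, 81.6% also lie in another gene on the same strand, so its level is uncertain. The sum of these 8 markers of other cell types ranged from 379 to 483 CPM in BP+Huaier and from 495 to 551 CPM in BP, nearly all of it COL1A2, and COL1A1 (5.92 ± 0.65 CPM in BP+Huaier, 1.34 ± 0.10 CPM in BP; SD, n = 3 each) passed the test. Their part in the results on complex I and II was not tested.

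All 52 members together took 0.356%, 0.335% and 0.296% of the counts of the BP+Huaier libraries and 0.351%, 0.341% and 0.360% of the counts of the BP libraries. BP+Huaier 3 had the lowest share of the 6. In bulk RNA, less RNA per cell and fewer cells that hold the transcripts cannot be told apart. The 7 mitochondrially encoded subunits of complex I (MT-ND1 to MT-ND6 and MT-ND4L), which form the proton-pumping core of the membrane arm, were listed at 0 in all 6 libraries, as was every other gene of the mitochondrial chromosome, so complex I was seen here only through its nuclear genes. Of the 52 members, 51 passed the filter on low counts and NDUFC2-KCTD14 had 0 counts throughout.

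Per kilobase of exon in the deposited table, members in BP ranged over a wide span of levels. The median member had 13.8 CPM per kilobase. NDUFS5 (279.9 CPM per kilobase), NDUFB11 (227) and NDUFB7 (160.4), all accessory subunits of the membrane arm, had the highest levels per kilobase, and NDUFA4L2 the lowest of the 51 (0.443). This ranking depends on the length used. Exons in the deposited table covered 16591 bases for NDUFB9 and 4523 for NDUFS8, but their principal transcripts have 711 and 791. For NDUFB11 they covered 952 bases, fewer than the 1388 of its principal transcript. For 8 members over 40% of the bases of the principal transcript also lay in exons of another gene: NDUFA7, NDUFA11, NDUFA13, NDUFB2, NDUFB8, NDUFV2, SDHA and NDUFC2-KCTD14. The authors' settings for such bases and for strand were not given in the sources used here, so the levels of these genes are uncertain, as are those of members with a close pseudogene.

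With all 6 libraries, 3 of the 51 members tested passed an adjusted p under 0.05 (edgeR's quasi-likelihood test, Benjamini-Hochberg over all 15022 genes tested), which was 5.88%, against 29.3% of all genes. NDUFS7 rose, against 14.4% of all genes called higher, and NDUFC2 and NDUFA4L2 fell, against 15.0% called lower. At an unadjusted p under 0.05, 7 members passed, against 43.3% of all genes. Among the complex I subunits, 1 of 37 rose and 1 fell, with a median log2 fold change of 0.16 and 24 values above 0. None of the 8 assembly factors passed in edgeR, with a median of 0.05. None of 4 complex II subunits passed either, with a median of 0.20, beside −0.02 over all genes and 0.03 over protein-coding genes. DESeq2 and limma-voom also called 0 assembly factors and 0 complex II subunits, where they called 34.6% and 31.3% of all genes. In edgeR 1 of each class had an unadjusted p under 0.05 (NDUFAF2 and SDHA). With scaling by library size alone the median of all genes was −0.28 and the medians of the 3 classes turned negative, at −0.13 for subunits, −0.21 for assembly factors and −0.07 for complex II. All 3 still lay above the median of all genes. The difference between subunits and assembly factors was not itself tested.

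**Figure D1:**
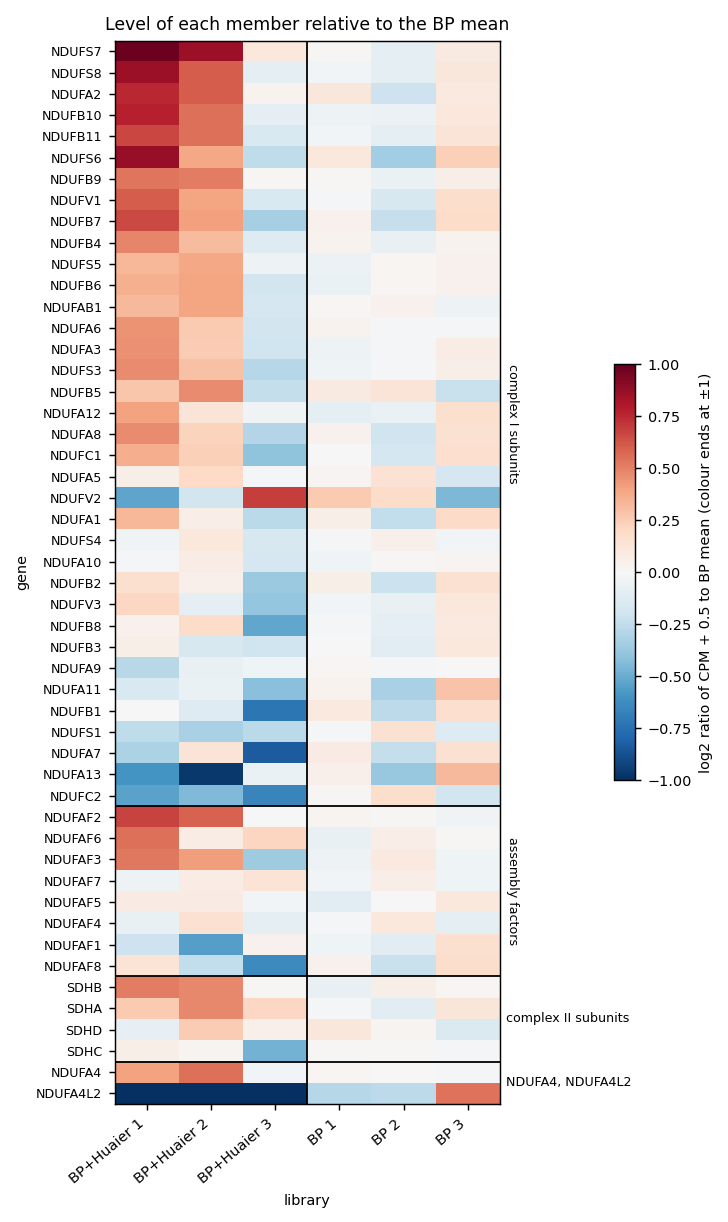
Log2 ratio of CPM + 0.5 to the BP mean for 50 of the 51 members with counts (rows, by class and by fitted change), in 3 BP+Huaier and 3 BP libraries (columns, TMM scaling), with colour ending at a ratio of 1 in either direction. In BP+Huaier 1 and 2 most complex I subunits were above the BP mean (red), with class medians of 0.33 and 0.22, and in BP+Huaier 3 most were below it (blue), with a median of −0.18.

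Within the BP+Huaier group, 1 library had the lowest level for most subunits. BP+Huaier 3 had the lowest level of its group for 33 of 37 complex I subunits (89.2%), 5 of 8 assembly factors and 3 of 4 complex II subunits, or 42 of 51 members (82.4%), beside 40.6% of all genes. It lay below all 3 BP libraries for 32 members, within their range for 14 and above it for 5, beside 5867 below, 3548 within and 5607 above of 15022 genes. In BP+Huaier 1, 2 and 3 the median log2 ratio of the subunits to the BP mean was 0.33, 0.22 and −0.18, and in BP 1, 2 and 3 it was 0.01, −0.07 and 0.10. For assembly factors the same medians were 0.11, 0.08 and −0.02 in BP+Huaier and −0.03, 0.04 and −0.01 in BP, a narrower span than that of the subunits. The 4 complex II subunits had medians of 0.16, 0.37 and 0.03 in BP+Huaier and 0.00, 0.02 and 0.00 in BP. The TMM factors behind these medians were 0.850, 0.857 and 1.039 in BP+Huaier 1, 2 and 3. In BP 1, 2 and 3 they were 1.103, 1.106 and 1.084. Before that scaling, complex I subunits took 0.2874%, 0.2655% and 0.2335% of the counts in BP+Huaier. In BP they took 0.2787%, 0.2683% and 0.2889%. By that share BP+Huaier 1 lay within the BP libraries, and BP+Huaier 2 and 3 lay below them. The SD was larger in BP+Huaier than in BP for 44 of 51 members and for 11802 of all 15022 genes.

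**Figure D2:**
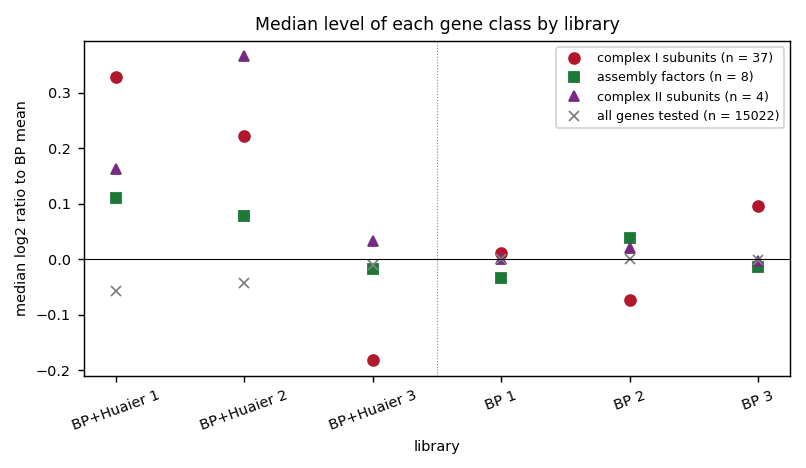
Median log2 ratio to the BP mean (y axis) of 37 complex I subunits, 8 assembly factors, 4 complex II subunits and all 15022 genes tested in each library (x axis, TMM scaling). The subunits (circles) lay at 0.33 and 0.22 in BP+Huaier 1 and 2 and at −0.18 in BP+Huaier 3, and all genes (crosses) stayed between −0.06 and 0.00.

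Without BP+Huaier 3 the fit called 28 of 51 members (54.9%), against 59.8% of all genes. Of these 24 were higher, against 28.8% of all genes called higher, and 4 were lower, against 31.0% called lower. The 24 comprised 19 complex I subunits, NDUFAF2, NDUFAF3, SDHA, SDHB and NDUFA4, and the 4 were NDUFS1, NDUFC2, NDUFA13 and NDUFA4L2. A fit of all 6 libraries with a weight for each, in which BP+Huaier 3 weighed least, called 27 members, 26 of them among these 28, against 64.8% of all genes. Of the 27, 22 were higher, against 31.0% of all genes, and 5 lower, against 33.9%. Leaving out any other library gave 0 or 1 call among members (0 without BP 3, otherwise NDUFA4L2), where 11.2% to 23.2% of all genes were called.

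**Figure D3:**
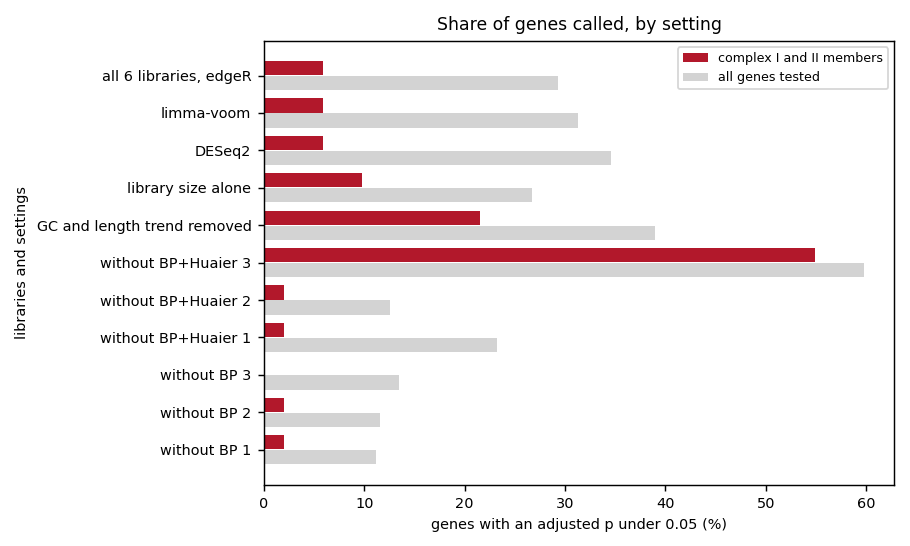
Share of genes with an adjusted p under 0.05 (x axis, percent) among the 51 members and among all genes tested, for fits that differ in libraries or settings (y axis). The members' share was 5.88% against 29.3% of all genes with all 6 libraries, and 54.9% against 59.8% without BP+Huaier 3.

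Upstream sequence was examined for the 43 of 52 members that the RefSeq promoter table for GRCh38.p14 held, over the 250 bases before the annotated start and on both strands. The letters GCGCANGCGC, bound by nuclear respiratory factor 1 (NRF1), occurred in 7 of 43 members (16.3%) and in 7.70% of 15300 protein-coding promoters. The ETS letters CCGGAAG, bound by GABP, occurred in 8 members (18.6%) and in 11.9% of promoters. The SP1 letters GGGCGG occurred in 23 members (53.5%) and in 56.8% of promoters. The letters ACGTG, the centre of the hypoxia response element, occurred in 10 members (23.3%) and in 20.8%, those of the oestrogen-related receptor, TNAAGGTCA, in 1 member, NDUFB4 (2.33%), and in 0.556%, and those of YY1, AAGATGGC, in 0 members and in 1.37%. Matches describe letters and not sites in use.

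The upstream sequences of 4 members are shown because NDUFS7 was the complex I subunit that rose, NDUFS1 the core subunit that was lower in every BP+Huaier library, and SDHA and SDHB the catalytic subunits of complex II. Each is given 5′ to 3′ on the strand of its gene, with the matched letters in capitals. They lie at chr19:1383657-1383906 on the plus strand (NDUFS7), chr2:206159445-206159694 on the minus strand (NDUFS1), chr5:218070-218319 on the plus strand (SDHA) and chr1:17054033-17054282 on the minus strand (SDHB). For NDUFS7, NDUFS1 and SDHA the exons of the deposited table begin inside or upstream of the window.
NDUFS7: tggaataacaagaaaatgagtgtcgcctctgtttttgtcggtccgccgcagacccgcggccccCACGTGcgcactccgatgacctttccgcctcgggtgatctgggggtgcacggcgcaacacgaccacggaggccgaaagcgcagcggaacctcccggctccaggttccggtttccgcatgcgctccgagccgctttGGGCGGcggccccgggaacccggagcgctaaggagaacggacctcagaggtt
NDUFS1: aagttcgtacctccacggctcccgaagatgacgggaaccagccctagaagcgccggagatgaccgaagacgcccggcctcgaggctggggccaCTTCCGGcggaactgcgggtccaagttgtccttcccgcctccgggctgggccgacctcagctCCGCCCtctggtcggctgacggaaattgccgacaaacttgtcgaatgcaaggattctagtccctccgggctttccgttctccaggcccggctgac
SDHA: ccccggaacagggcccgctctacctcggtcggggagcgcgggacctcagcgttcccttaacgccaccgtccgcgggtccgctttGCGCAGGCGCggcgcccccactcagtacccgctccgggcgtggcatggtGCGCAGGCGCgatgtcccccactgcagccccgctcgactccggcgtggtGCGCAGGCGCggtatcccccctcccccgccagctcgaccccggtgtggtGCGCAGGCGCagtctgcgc
SDHB: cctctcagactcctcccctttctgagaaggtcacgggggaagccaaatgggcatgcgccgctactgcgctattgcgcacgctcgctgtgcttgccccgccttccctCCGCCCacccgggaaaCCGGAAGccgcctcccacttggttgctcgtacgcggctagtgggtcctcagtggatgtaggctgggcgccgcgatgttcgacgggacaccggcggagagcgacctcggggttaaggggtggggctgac
The NDUFS7 window holds 1 SP1 match and the palindrome CACGTG, which reads ACGTG on both strands. The NDUFS1 and SDHB windows each hold 1 ETS and 1 SP1 match. The SDHA window holds 4 copies of the NRF1 letters, evenly spaced, and no match to the other motifs.

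The core subunits of the matrix arm carry the flavin and the iron-sulfur clusters. NDUFS7, which binds the terminal cluster next to the ubiquinone site, lies on chromosome 19 at 1383527 to 1395589 of GRCh38. It had 109, 100.5 and 59.6 CPM in BP+Huaier 1, 2 and 3 and 55.8, 51.6 and 58.8 CPM in BP 1, 2 and 3. All 3 BP+Huaier libraries lay above BP, but BP+Huaier 3 by less than the gap between BP 1 and BP 2. The means were 89.8 ± 26.6 CPM in BP+Huaier and 55.4 ± 3.64 CPM in BP (SD, n = 3 each), a 1.62-fold rise (log2 fold change 0.70 ± 0.22, SE; edgeR adjusted p = 0.0395). The call was lost without any library other than BP+Huaier 3 and with library size alone (edgeR adjusted p = 0.106). It was also lost with genes of at least 5 CPM (0.0639) and with a block on the replicate number (0.0711). After removal of a trend on GC content and length it was lost too (log2 fold change 0.34, adjusted p = 0.0603). Without BP+Huaier 3 the fold was 1.91, and over 16 alternatives the adjusted p ran from 7.9e-07 to 0.144. Of the exon bases of NDUFS7, 51.4% also lie in antisense genes, from which its reads cannot be told apart where counting ignores strand.

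NDUFS8, which carries a pair of iron-sulfur clusters on the path to NDUFS7, had 214, 179.8 and 111 CPM in BP+Huaier and 116, 111 and 128 CPM in BP. BP+Huaier 1 and 2 were above every BP library and BP+Huaier 3 was at the level of the lowest BP library. It did not pass with all libraries (log2 fold change 0.51 ± 0.22, edgeR adjusted p = 0.113) and passed without BP+Huaier 3 (1.68-fold, adjusted p = 3.75e-05). NDUFV1, which holds the flavin and binds NADH, had the same layout, with 315, 271 and 186 CPM in BP+Huaier and 204, 185 and 234 CPM in BP (log2 fold change 0.31 ± 0.20, adjusted p = 0.264). NDUFS3, part of the ubiquinone-binding module, had 96.3, 85.1 and 56.8 CPM in BP+Huaier and 67.2, 68.6 and 72.4 CPM in BP, so that BP+Huaier 3 was the lowest of the 6 (log2 fold change 0.19 ± 0.19, adjusted p = 0.464). NDUFV1 and NDUFS3 both passed without BP+Huaier 3 (1.42-fold and 1.32-fold).

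NDUFS1, the largest subunit, holds several iron-sulfur clusters on the way from the flavin, and had 141, 134 and 139 CPM in BP+Huaier and 166, 186 and 154 CPM in BP. Every BP+Huaier library lay below every BP library, BP+Huaier 3 included. The fitted value was −0.29 ± 0.13 on the log2 scale (edgeR adjusted p = 0.126), but the sign turned to 0.16 after removal of the GC and length trend. That step used the longest annotated transcript, of 11820 bases for NDUFS1, beside a median of 1333 over the 37 complex I subunits. NDUFV2, which carries a cluster beside the flavin, had 2.93, 3.84 and 7.49 CPM in BP+Huaier and 5.44, 5.11 and 3.13 CPM in BP, with BP+Huaier 3 the highest of the 6 (log2 fold change 0.07 ± 0.36, adjusted p = 0.894), and 82.9% of its principal transcript is shared with a gene on the same strand.

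With all libraries, where 29.3% of all genes were called, 1 of the 7 core subunits passed (median log2 fold change 0.19). Among the 30 accessory subunits 1 passed (median 0.13). By position, 1 of 16 subunits of the matrix arm passed (median 0.14) and 1 of 20 of the membrane arm (median 0.13), and NDUFAB1, the acyl carrier protein that sits in both arms, had a log2 fold change of 0.20. The called accessory subunit was NDUFC2, a membrane arm subunit on chromosome 11 at 78068297 to 78079862. It had 8.59, 9.24 and 7.84 CPM in BP+Huaier and 12.8, 14.4 and 11.1 CPM in BP, with every BP+Huaier library below every BP library. It fell 1.49-fold (log2 fold change −0.58 ± 0.17, SE; edgeR adjusted p = 0.0339). The call was lost without any library other than BP+Huaier 3 and without the filter on low counts (edgeR adjusted p = 0.0666). It was also lost with a block on the replicate number (0.0737). The fall stayed at 1.40-fold to 1.56-fold under each of these. Of its exon bases 21.0% are shared with other genes.

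The other 29 accessory subunits did not pass with all libraries, and their log2 fold changes ran from −0.57 to 0.49. The 5 highest were NDUFA2, a small matrix arm subunit (0.49), NDUFB10 and NDUFB11 of the membrane arm (0.46 and 0.40), the zinc-binding matrix arm subunit NDUFS6 (0.39) and NDUFB9 (0.37). Each was highest in BP+Huaier 1 and lowest of its group in BP+Huaier 3. Without BP+Huaier 3 they were 1.61-fold, 1.6-fold, 1.54-fold, 1.56-fold and 1.45-fold higher, and all 5 passed. These 5 were picked by their fitted values in the same libraries, and that fit called 28.8% of all genes higher. The lowest was NDUFA13, also known as GRIM-19, with 3.00, 2.22 and 4.55 CPM in BP+Huaier and 5.00, 3.57 and 6.14 CPM in BP (log2 fold change −0.57 ± 0.31, edgeR adjusted p = 0.188), of whose principal transcript 44.1% is shared. NDUFA7 was near the floor of detection (0.288 to 1.03 CPM in BP+Huaier and 0.692 to 1.06 CPM in BP). NDUFS4, an accessory subunit often mutated in Leigh syndrome, and NDUFA10 had log2 fold changes of −0.03 each.

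**Figure D4:**
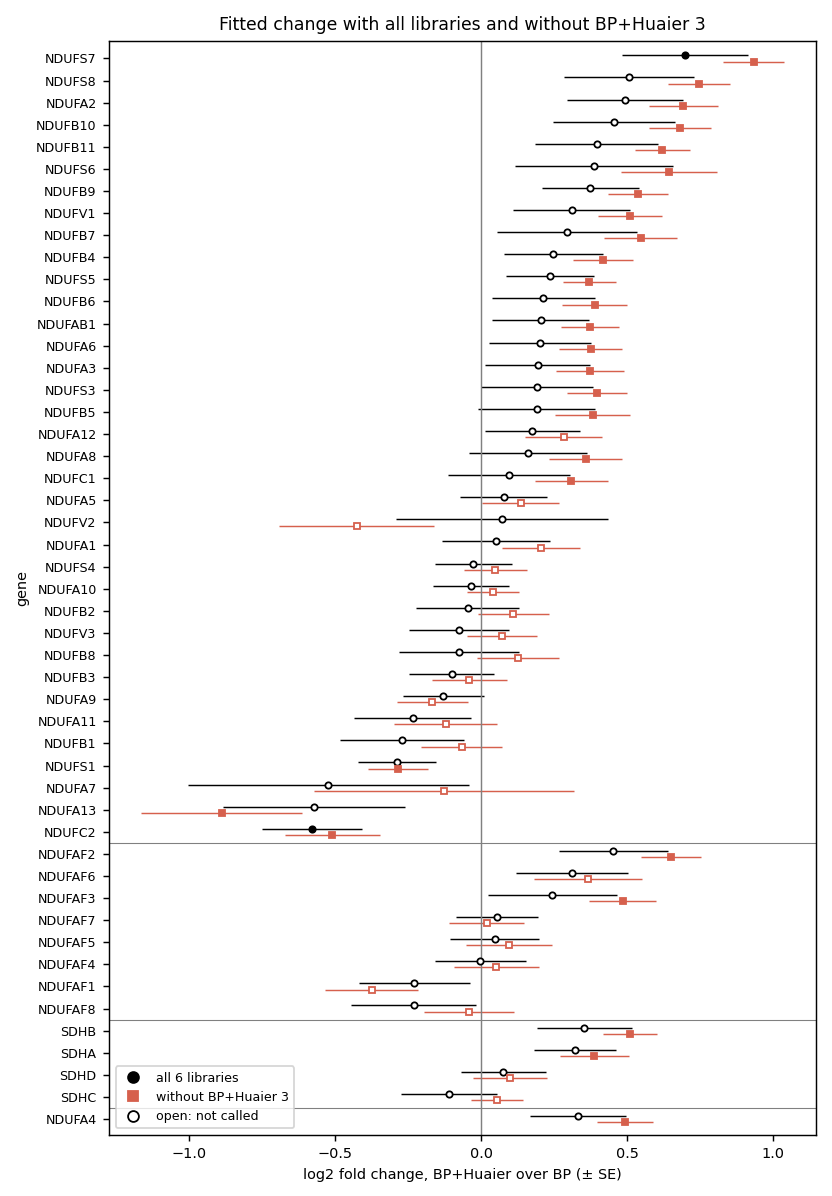
Fitted log2 fold change of BP+Huaier over BP with its SE (x axis, TMM scaling) for 49 members (y axis, by class) with all 6 libraries (circles) and without BP+Huaier 3 (squares); filled symbols passed an adjusted p under 0.05, and NDUFA4L2 (−3.14) lies outside the axis. NDUFS7 (0.70) and NDUFC2 (−0.58) are the only filled circles. Without BP+Huaier 3 the median of the 37 complex I subunits moved from 0.16 to 0.31. In that fit 22 of the 37 were called, 19 higher and 3 lower, beside 59.8% of all genes (28.8% higher and 31.0% lower).

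The assembly factors act in turn as the complex is built. NDUFAF2, which holds the place of NDUFA12 late in assembly, had 73.5, 69.4 and 45.7 CPM in BP+Huaier and 46.7, 46.2 and 44.6 CPM in BP. BP+Huaier 1 and 2 lay above every BP library and BP+Huaier 3 lay within them (log2 fold change 0.45 ± 0.18, edgeR adjusted p = 0.093). It passed without BP+Huaier 3 (1.57-fold) and after removal of the GC and length trend. NDUFAF3, which works with NDUFAF4 in an early step, had 43.4, 40.2 and 23.4 CPM in BP+Huaier and 28.9, 32.2 and 29.1 CPM in BP, and passed only without BP+Huaier 3 among the alternatives that left out a library (1.40-fold). Its partner NDUFAF4 had a fitted value of 0.00 on the log2 scale, with 13.4, 15.8 and 13.3 CPM in BP+Huaier and 14.1, 15.2 and 13.2 CPM in BP.

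The remaining assembly factors had small fitted values. NDUFAF5 and NDUFAF7, a hydroxylase and a methyltransferase that modify core subunits, had log2 fold changes of 0.05 each. NDUFAF6 (0.31) was above BP in all 3 BP+Huaier libraries but did not pass (edgeR adjusted p = 0.241). NDUFAF1, which binds an intermediate of the membrane arm, and NDUFAF8 had values of −0.23 each and did not pass (adjusted p = 0.379 and 0.431). NDUFAF1 was higher in BP+Huaier 3 (16.0 CPM) than in BP+Huaier 1 and 2 (13.4 and 10.5 CPM), the reverse of most subunits. Of all 8, NDUFAF2 and NDUFAF3 were called higher and 0 lower without BP+Huaier 3, a fit that called 28.8% of all genes higher and 31.0% lower.

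Of 13 other genes known to assist assembly of complex I, 1 rose and 2 fell in edgeR with all libraries, where 29.3% of all genes were called, with a median log2 fold change of 0.08. DMAC2 was 1.50-fold higher (86.7 ± 13.4 CPM in BP+Huaier, 58.0 ± 1.24 CPM in BP; SD, n = 3 each; adjusted p = 0.0198). TIMMDC1, a membrane protein of the assembly intermediate, was 1.38-fold lower (53.1 ± 2.68 CPM in BP+Huaier, 73.3 ± 2.71 CPM in BP; adjusted p = 0.0232). LYRM2 was 1.43-fold lower (16.3 ± 1.99 CPM in BP+Huaier, 23.5 ± 0.94 CPM in BP; adjusted p = 0.0317). All 3 lost the call without BP+Huaier 2 or any 1 of the BP libraries, and without BP+Huaier 3 there were 4 calls higher and 4 lower among the 13, beside 59.8% of all genes called. The 10 that did not pass in edgeR with all libraries were ACAD9, AIFM1, COA1, DMAC1, ECSIT, FOXRED1, NUBPL, TMEM70, TMEM126B and TMEM186, of which TMEM186 was called lower in DESeq2 (adjusted p = 0.0489) and limma-voom (adjusted p = 0.0441).

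In complex II, SDHA holds the flavin and oxidises succinate, SDHB carries the iron-sulfur clusters, and SDHC and SDHD anchor them in the membrane. SDHA had 50.7, 59.1 and 48.7 CPM in BP+Huaier and 41.9, 39.1 and 45.8 CPM in BP. All 3 BP+Huaier libraries lay above all 3 BP libraries, BP+Huaier 3 included, yet the gene did not pass (log2 fold change 0.32 ± 0.14, edgeR adjusted p = 0.111), and 79.2% of its principal transcript is shared with a gene on the same strand. SDHB had 194, 190.0 and 137 CPM in BP+Huaier and 129, 141 and 137 CPM in BP, with BP+Huaier 3 within the BP libraries (log2 fold change 0.35 ± 0.16, adjusted p = 0.125). Without BP+Huaier 3, SDHA and SDHB were 1.31-fold and 1.42-fold higher and both passed.

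The membrane anchors had smaller fitted values. SDHC had 165, 161 and 114 CPM in BP+Huaier and 159, 159 and 155 CPM in BP (log2 fold change −0.11 ± 0.16, edgeR adjusted p = 0.634). BP+Huaier 1 and 2 lay slightly above every BP library for SDHC, and BP+Huaier 3 lay far below them. SDHD had 47.8, 60.4 and 52.6 CPM in BP+Huaier and 54.8, 51.8 and 45.9 CPM in BP, and the groups overlapped (log2 fold change 0.08 ± 0.15, adjusted p = 0.712). Neither passed without BP+Huaier 3 (adjusted p = 0.618 and 0.511). Of the 4 assembly factors of complex II, SDHAF1 to SDHAF4, 0 passed in edgeR, DESeq2 or limma-voom, which called 29.3%, 34.6% and 31.3% of all genes. In edgeR the unadjusted p was under 0.05 for SDHAF1 (log2 fold change 0.63) and, in the other direction, SDHAF2 (−0.51), as it was for 43.3% of all genes. The median of the 4 was 0.32. Without BP+Huaier 3, 2 of the 4 were called higher, as were 28.8% of all genes. SDHAF1, which helps to fit the iron-sulfur clusters into SDHB, had 42.5, 29.1 and 19.3 CPM in BP+Huaier and 19.5, 16.7 and 22.3 CPM in BP.

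**Figure D5:**
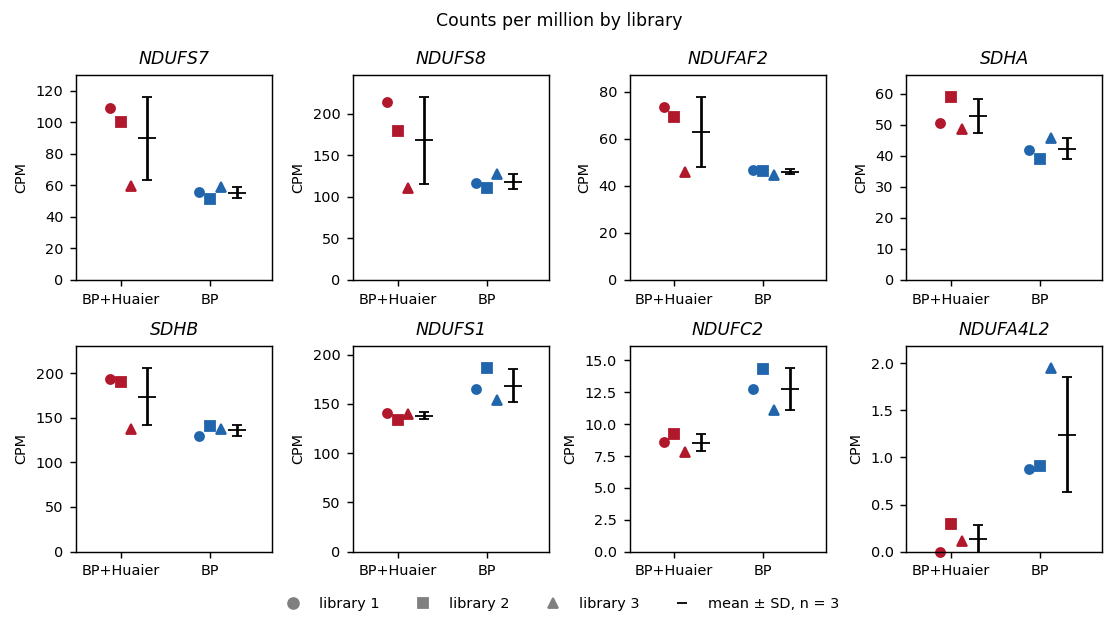
CPM by library (y axis, TMM scaling, from 0) for 8 members in BP+Huaier (red) and BP (blue), with marker shape for library number and the mean ± SD of 3 libraries beside them. In NDUFS7, NDUFS8, NDUFAF2 and SDHB, BP+Huaier 3 sits near the BP libraries (59.6, 111, 45.7 and 137 CPM), while in NDUFS1, NDUFC2 and NDUFA4L2 all 3 BP+Huaier libraries lie below BP.

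Of the 3 genes that carry the NDUF name without being complex I subunits, NDUFA4L2 had the largest change of all members. It is a paralogue of NDUFA4 known as a target of hypoxia-inducible factor, and lies on chromosome 12 at 57234903 to 57240715. It had 0, 4 and 2 counts in BP+Huaier and 16, 17 and 33 counts in BP, or 6 against 66 summed over the libraries. All BP+Huaier libraries lay below all BP libraries. It fell 8.83-fold (log2 fold change −3.14, 95% interval −4.56 to −1.73; edgeR adjusted p = 0.0133), and the call was lost without BP 3, the library with the most counts (adjusted p = 0.062). Its fold rests on few counts, and it was 17.6-fold without BP+Huaier 2 and 6.08-fold without BP+Huaier 1. NDUFA4 had 132, 147 and 98.0 CPM in BP+Huaier and 101, 99.9 and 98.5 CPM in BP, and did not pass with all libraries (log2 fold change 0.33 ± 0.16, adjusted p = 0.153).

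Groups that did not overlap were counted next. With all libraries, 3 members lay higher in every BP+Huaier library than in any BP library (NDUFS7, NDUFAF6 and SDHA), against 21.9% of all genes, and 4 lower (NDUFS1, NDUFA9, NDUFC2 and NDUFA4L2), against 24.9%. Together that was 13.7% of the members and 46.8% of all genes. Without BP+Huaier 3, 27 members lay higher, against 34.6% of all genes, and 6 lower, against 39.0%. The 27 comprised 20 complex I subunits, 3 assembly factors, 3 complex II subunits and NDUFA4.

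The GC content of transcripts moved with the level in several libraries. Over all genes Pearson's correlation of GC content with the log2 ratio of a library to the mean of the BP libraries (for a BP library, of the other BP libraries) was 0.39, 0.27 and 0.03 in BP+Huaier 1, 2 and 3 and 0.03, −0.44 and 0.42 in BP 1, 2 and 3. Spearman's rho between log2 fold change and GC content was 0.16 over the 51 members tested (Pearson's r −0.16) and 0.34 over the 47 of at least 5 CPM (Pearson's r 0.31), and over 14896 genes with known GC content it was 0.33 (Pearson's r 0.255). These genes share their libraries and are not independent replicates. Once a spline on GC content and transcript length had been removed from each library, 11 members passed (39.0% of all genes did). Of these 7 were higher, NDUFS5, NDUFA2, NDUFB9, NDUFAF2, NDUFA4, SDHB and SDHD, against 19.4% of all genes, and 4 lower, NDUFA11, NDUFC2, NDUFAF8 and NDUFA4L2, against 19.6%. NDUFC2 and NDUFA4L2 were the 2 members called both with and without that step.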

How the data were processed

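Whole-number counts per gene, not normalized, were deposited by the authors in 1 table of 6 libraries, as read from the values. The submitters' processing notes list fastp 0.20.0, HISAT2 2.1.0, featureCounts 1.6.1 and build GRCh38, which all coordinates follow. Annotation release, strand, multi-mapping and overlap settings were not given in the sources used here. Of 60648 genes, 44 copies on the Y chromosome of pseudoautosomal genes were dropped, and 1 gene whose lines were broken was not used. Symbols came from a table of gene names (99.77% of IDs matched), and biotypes from GENCODE annotation (58336 genes). GC content and transcript length were those of the longest GENCODE transcript of each gene.

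The counts went into edgeR 4.0.16 (R 4.3.3), with filterByExpr by group, TMM scaling and a two-sided robust quasi-likelihood test whose single term was the group. Calls used an adjusted p under 0.05 over 15022 genes. The common biological coefficient of variation was 18.1%, and counts differed between libraries of a group by 3.76 to 78.8 times the sampling variance. The range given for NDUFA4L2 took 1.96 SE on either side, a normal approximation that is too narrow for a 95% interval with 3 libraries per group. Log2 ratios to the BP mean used CPM + 0.5. Depth limits values under 3 counts, and this covers counting error only.

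Members and lists were chosen with earlier results of these data known. The rule for values in every library took called members, the complex II subunits, the 7 core subunits and called assembly factors. Other genes shown with values were chosen after these were seen. The values of 2 genes that the rule names are not reported here. They stayed in all fits and counts. Alternatives were DESeq2 1.42.0, limma-voom (limma 3.58.1), other scalings and filters, each library left out, a block on the replicate number, a stricter threshold, and removal of a spline on GC content and length. Library weights in limma-voom were chosen after seeing the data. On simulated counts of 14620 genes, edgeR recovered 74% of 100 genes changed 2-fold and 99% of 100 changed 4-fold, and 5.98% of calls were false. In the simulation the spread was equal in the groups and no library stood apart, unlike in the real libraries. The changed genes were drawn only from those with enough counts, and were far fewer than the genes called in the real data. These rates may therefore not hold for the members. Figures used matplotlib 3.10.9 in Python 3.11.15.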

Additional observations from a re-analysis of the deposited data

How the results depend on the processing

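DESeq2, DESeq2 size factors, limma-voom and protein-coding genes alone gave the same counts of called members as the 1 higher and 2 lower of the edgeR fit of all 6 libraries. With the GC and length trend removed the counts were 7 higher and 4 lower (5 complex I subunits, 2 assembly factors, 2 complex II subunits). With library weights they were 22 higher and 5 lower (20 subunits, 3 assembly factors, 2 complex II subunits). Without a filter on low counts they were 5 higher and 1 lower (4 subunits, 1 assembly factor), beside 18.7% of all genes called. With library size alone they were 0 higher and 5 lower (1 complex II subunit, SDHC), beside 1051 higher and 2959 lower among all genes. With at least 5 CPM, where fewer genes were tested, they were 0 and 1 (1 subunit), beside 27.2% of all genes called. At an adjusted p under 0.01 they were 0 and 0 (0 subunits), beside 10.9% of all genes. Leaving out 1 library at a time gave 0 to 24 higher and 0 to 4 lower, with 0 to 22 subunits, 0 to 2 assembly factors and 0 to 2 complex II subunits, where each upper end came without BP+Huaier 3. Over all genes the 4406 calls became 1636 at an adjusted p under 0.01, 2894 with at least 5 CPM, 9741 with library weights, and 1719 to 9245 without 1 library. For the 51 members and the called genes of the other lists, 890 log2 fold changes under an alternative kept their side of the threshold. A further 65 passed newly and 93 no longer passed. No gene called in the edgeR fit of all 6 libraries or in an alternative changed sign between them. Between alternatives signs did differ. NDUFS1 and SDHC were called lower with library size alone (−0.55 and −0.39). After removal of the GC and length trend they stood at 0.16 and 0.41 and were not called. The longest annotated transcript, whose length that step used, had 11820 bases for NDUFS1 and 13570 for SDHC. Exons in the deposited table covered 12174 bases for NDUFS1 and only 1902 for SDHC. The cause of these shifts was not tested. Replicate numbers did not pair the libraries: deviations of libraries of the same number correlated at 0.01, −0.06 and −0.28. With the replicate number as a block, 0 members were called higher and 1 lower, NDUFA4L2, with 0 subunits, and 3099 of all genes. Depth limits NDUFA4L2 and NDUFA7, which had few counts, and the 7 mitochondrially encoded subunits gave no values. For NDUFA7, 78.7% of the principal transcript also lies in exons of other genes, so its level is uncertain for that reason too.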

Other observations

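Complex I and complex II both need iron-sulfur clusters, and of 14 genes that supply them 13 were tested and FDX2 was left out by the filter on low counts. Of the exon bases of FDX2, 70.9% also lie in another gene on the same strand, so its level is uncertain. The median log2 fold change of the 13 was 0.33, and 2 rose and 1 fell in edgeR, where 29.3% of all genes were called. ISCU, the scaffold on which clusters form, had 70.1, 68.5 and 54.5 CPM in BP+Huaier and 45.9, 43.4 and 48.3 CPM in BP, so that all BP+Huaier libraries were above all BP libraries (1.40-fold, edgeR adjusted p = 0.0338). ISCA2, which acts late in cluster delivery, rose 1.43-fold (26.2 ± 4.22 CPM in BP+Huaier, 18.4 ± 1.26 CPM in BP; SD, n = 3 each; adjusted p = 0.0450). GLRX5 had 149, 127 and 81.8 CPM in BP+Huaier and 88.3, 71.2 and 87.6 CPM in BP, with BP+Huaier 3 within the BP libraries, and did not pass (adjusted p = 0.0899). Both rises were lost without any 1 library other than BP+Huaier 3, and without BP+Huaier 3 the counts were 7 higher and 1 lower, beside 59.8% of all genes called.

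Of 10 regulators of nuclear genes for respiration, 9 were tested, PPARGC1A had 0 counts, and 2 rose, beside 14.4% of all genes. ESRRA, the oestrogen-related receptor alpha, had 189, 157 and 106 CPM in BP+Huaier and 81.6, 66.8 and 87.7 CPM in BP (1.92-fold, edgeR adjusted p = 0.0132). YY1 averaged 274 ± 18.0 CPM in BP+Huaier and 189.8 ± 6.0 CPM in BP (SD, n = 3 each; 1.44-fold, edgeR adjusted p = 0.0159). The other 7, NRF1, GABPA, GABPB1, TFAM, TFB2M, PPRC1 and PPARGC1B, did not pass, with NRF1 at 17.6 ± 1.34 CPM in BP+Huaier and 15.1 ± 1.77 CPM in BP. Without BP 1, BP 2 or BP+Huaier 2, 0 of the 9 passed in edgeR, with 2 at an unadjusted p under 0.05 each time. YY1 also lost its call without BP 3 (edgeR adjusted p = 0.0767). Without BP+Huaier 3 the counts were 3 higher and 2 lower, beside 28.8% and 31.0% of all genes.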
